A study of Mus musculus with 5 samples.

Results

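The genes described here are 9 that set how T cells leave a lymph node through sphingosine 1-phosphate (S1P): the receptors S1pr1, S1pr4 and S1pr5, the regulators Klf2 and Cd69, the S1P-making kinases Sphk1 and Sphk2, and the S1P-degrading enzymes Sgpl1 and Sgpp1. They were taken by gene symbol in the platform annotation, which gave 14 of the 45101 probe sets on the array and 9 of the 18193 genes with a probe set of their own. The study compared 3 arrays of activated with 2 arrays of naive tumor-specific mouse CD4+ T cells, all from TCR-transgenic SCID mice, 7 to 12 weeks old, on a Balb/c background. The activated cells were CD4+ GB113+ cells, sorted to at least 95% purity on day 8 from axillary nodes that drained a subcutaneous inoculum of 100000 MOPC315 myeloma cells in 250 µl of growth factor-reduced Matrigel, a basement membrane gel. The naive cells came from pooled lymph nodes of naive mice of the same transgenic SCID kind and were handled in the same way. The SCID defect leaves these animals without other T and B cells, so both groups share the transgenic receptor and that background. GB113 is an antibody to this receptor. Each array was an independent experiment on pooled nodes (of 12 to 15 injected mice for the activated cells), so the spread between single animals is not visible. The promoter of the transgene is not given in the sources used here, nor whether Cd69 protein served in the sort. A group given Matrigel alone was not analysed here.

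S1P is a lipid kept high in blood and lymph and low inside lymph nodes. T cells that carry the receptor S1PR1 follow this gradient into the efferent lymph, and the transcription factor KLF2 switches on S1pr1 in resting T cells. After antigen is met, the membrane protein CD69 binds S1PR1 and takes it off the surface, and Klf2 and S1pr1 transcription fall, so that responding cells stay in the node for a time. Inside cells, sphingosine kinases make S1P, the phosphatase encoded by Sgpp1 turns it back into sphingosine, and the lyase encoded by Sgpl1 cleaves it for good, a step that also keeps the S1P of lymphoid tissue low.

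Promoter windows of 2 members are shown, taken from RefSeq on build GRCm38.p6. They are those of Klf2, which had the largest fall among the 9 genes, and of the receptor gene S1pr4. The activated arrays of S1pr4 all lay below the naive ones, as did those of 20.7% of all genes tested. S1pr4 did not pass the test (limma adjusted p = 0.068). Each window runs 5′ to 3′ from 250 bases before to 50 bases after the start site. Capitals mark CACCC, a core letter run bound by Kruppel-like factors such as KLF2 itself, which reads GGGTG where it lies on the other strand.
Klf2, chr8:72318812-72319111, plus strand: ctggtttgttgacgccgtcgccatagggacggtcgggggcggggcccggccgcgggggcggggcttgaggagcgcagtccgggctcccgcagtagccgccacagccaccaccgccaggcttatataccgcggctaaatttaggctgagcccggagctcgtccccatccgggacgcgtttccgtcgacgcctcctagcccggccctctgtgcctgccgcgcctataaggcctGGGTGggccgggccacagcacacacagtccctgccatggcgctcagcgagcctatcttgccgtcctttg
S1pr4, chr10:81500088-81500387, minus strand: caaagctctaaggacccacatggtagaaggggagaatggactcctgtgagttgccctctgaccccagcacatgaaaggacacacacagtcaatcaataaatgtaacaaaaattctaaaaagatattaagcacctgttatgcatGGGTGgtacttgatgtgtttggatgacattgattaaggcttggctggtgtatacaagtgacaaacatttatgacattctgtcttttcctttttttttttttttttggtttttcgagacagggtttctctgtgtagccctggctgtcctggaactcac
CACCC began at position -19 from the start site in the Klf2 window and at -107 in that of S1pr4. There were 12 windows for 7 of the 9 members, and none for S1pr1 or Cd69. On either strand CACCC was in 9 of these 12 windows, of 5 members, and in 57.5% of all 32851 windows. Several of the windows belong to Sphk1 and overlap each other, so some sites are counted more than once. GTAAACA, a forkhead core, was in 0 of the 12 and in 3.65% of all windows, and TGANTCA, an AP-1 core, was in 2 overlapping windows of Sphk1 and in 7.81% of all. No motif overlapped another in the windows shown. These are matches of letters, not measured binding.

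Activated cells had less Klf2 and less S1pr1 than naive cells, while Cd69 did not pass the test. With limma and Benjamini-Hochberg adjustment over 12873 genes, Klf2 and S1pr1 were called lower at an adjusted p under 0.05 and no member was called higher. Of the 9 members, 7 could be tested. Of these, 2 were called lower, 0 higher and 5 neither; at an unadjusted p under 0.05 the counts were 4 lower and 0 higher. Over all genes tested, 4.14% were called lower and 6.36% higher, and at an unadjusted p under 0.05 these shares were 11.5% and 12.8%. The median log2 fold change of the 7 tested members was -0.66, against -0.03 over all genes tested. Log2 fold changes are activated over naive, computed after adding 16 to each intensity, so those of dim genes are understated. S1pr5 and Sphk1 did not lie above the 40th percentile of their array, an intensity of 10.5 to 13.4, on at least 2 arrays and had no test. In sorted bulk RNA, fewer cells that express a gene and less of its RNA per cell cannot be told apart.

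**Figure D1:**
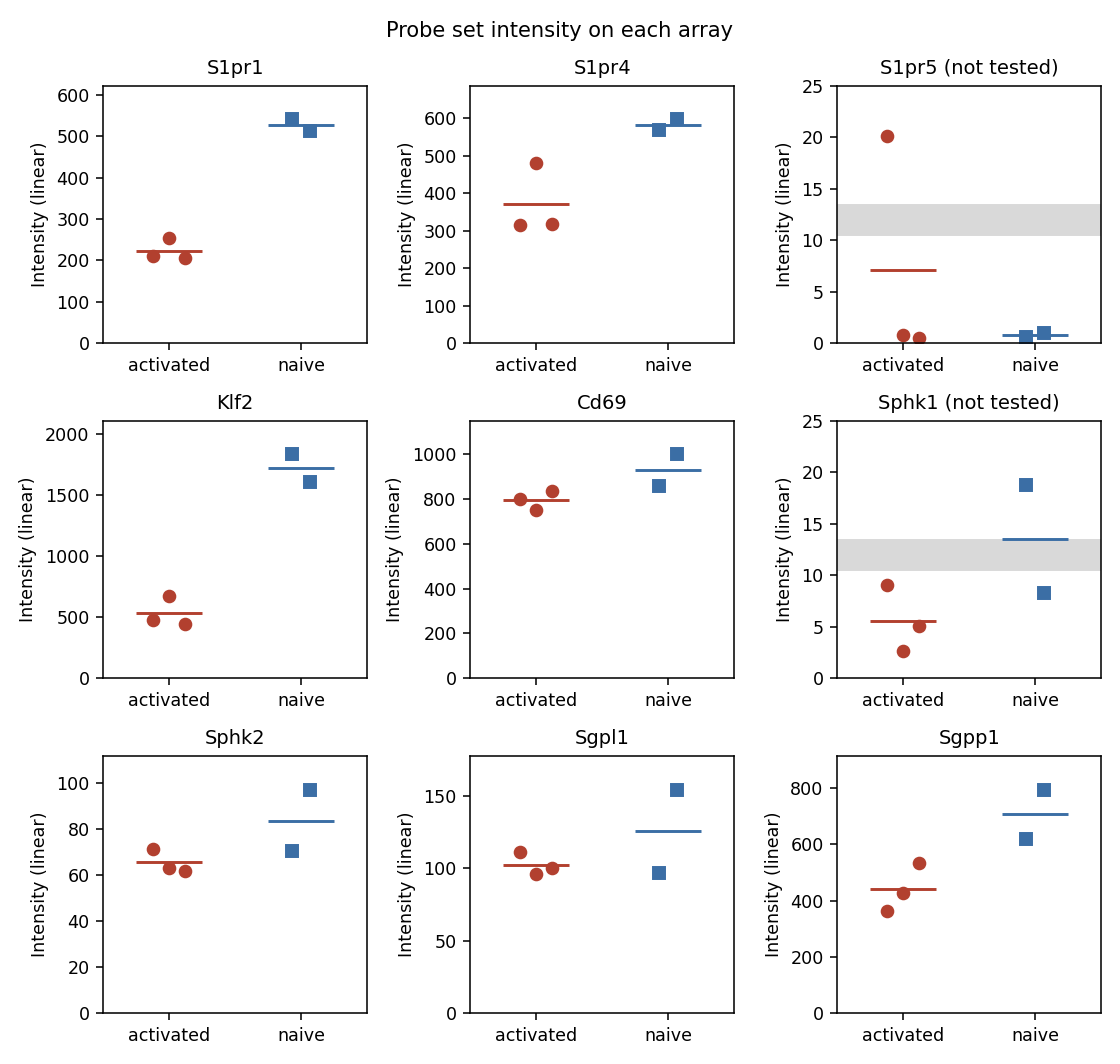
Intensity (linear axis from 0, scale differing between panels) of the 9 genes on each array, with the brightest probe set of each. Red circles are the 3 activated arrays, blue squares the 2 naive arrays, and horizontal lines the group means; the grey band in the panels of S1pr5 and Sphk1 spans the filter intensity of 10.5 to 13.4. Klf2 and S1pr1 show the activated arrays far below the naive ones, Cd69 shows both groups close together, and S1pr5 is above the band on activated replicate 1 alone.

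Klf2 (probe set 1448890_at) is the factor that keeps resting T cells quiescent and able to recirculate. It had intensities of 475.3, 670.3 and 447.7 in activated cells, against 1833.2 and 1607.6 in naive cells. All 3 activated arrays were below both naive arrays, with activated replicate 2 the highest of the 3. Activated cells averaged 531 ± 121 (SD, n = 3) and naive cells 1720 ± 160 (SD, n = 2). The log2 fold change was -1.69 ± 0.19 (SE, limma adjusted p = 0.00035), or 3.22-fold lower with a 95% interval of 2.38 to 4.34. Of the 12873 genes tested, 0.396% had a larger fall.

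S1pr1 (probe set 1423571_at), the receptor through which T cells enter the lymph, had intensities of 211.5, 253.8 and 205.7 in activated cells, against 540.5 and 511.8 in naive cells. The groups did not overlap, and here too activated replicate 2 was the highest activated array. Activated cells averaged 224 ± 26.3 (SD, n = 3) and naive cells 526 ± 20.3 (SD, n = 2). The log2 fold change was -1.18 ± 0.16 (SE, limma adjusted p = 0.0011), or 2.27-fold lower with a 95% interval of 1.76 to 2.92. Over all genes tested, 1.09% had a larger fall.

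S1pr4 (probe set 1451024_at) encodes a receptor found mainly on lymphocytes and other blood cells. Its intensities were 315.4, 480.2 and 317.2 in activated cells, against 569.3 and 597.1 in naive cells. The 2 lower activated arrays were close to each other, and activated replicate 2 lay nearer to the naive arrays. The log2 fold change was -0.66 ± 0.20 (SE, limma adjusted p = 0.068), with a 95% interval of -1.10 to -0.21, and it did not pass the test. Without activated replicate 2 the log2 fold change was -0.85 and passed (adjusted p = 0.031), while without any other array it lay between -0.69 and -0.56 and did not pass (limma adjusted p = 0.14 to 0.27).

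S1pr5 (probe set 1449365_at), a receptor known from the egress of NK cells, was near the bottom of the scale on 4 of 5 arrays. It had intensities of 20.1, 0.8 and 0.5 in activated cells, against 0.6 and 1.0 in naive cells, so 1 activated array stood apart. The sum of NK cell markers was highest on the same array. Ncr1, an activating receptor of NK cells, had 265.3, 9.9 and 5.9 in activated cells, against 5.6 and 11.2 in naive cells. Klre1, a lectin-like NK receptor, had 93.9, 15.8 and 12.4 in activated cells, against 9.4 and 14.3 in naive cells. Of 6 NK markers 5 had a probe set of their own and 4 were tested. The summed intensity of the 5 was 1267, 520.2 and 629.3 in activated cells, against 225.4 and 111.4 in naive cells. Eomes and Klrk1, which T cells can express as well, were called higher in activated cells and made up most of the sum on every array, activated replicate 1 included. No NK marker was listed at 0, and Klra8 was at 3.5 or less on every array. The summed intensity of 7 myeloid markers was also highest on activated replicate 1, at 2687 against 148.2 to 741.4 on the other arrays. The part of NK cells or of other cells in the S1pr5 value was not tested.

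**Figure D2:**
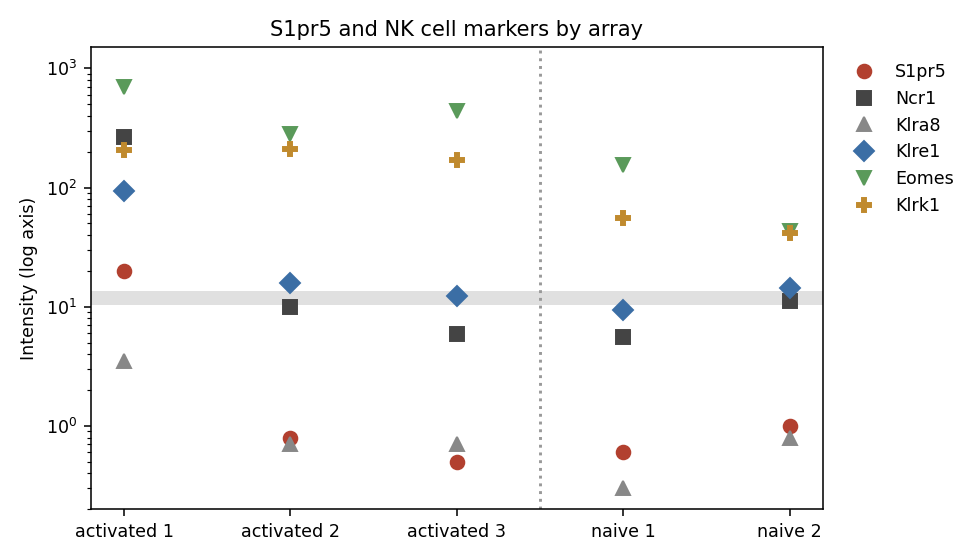
Intensity (log axis) of S1pr5 and of 5 NK cell markers on the 3 activated and 2 naive arrays, 1 point per gene and array, with a grey band at the filter intensity of 10.5 to 13.4. S1pr5, Ncr1, Klre1, Klra8 and Eomes are highest on activated replicate 1, while Klrk1 is slightly higher on activated replicate 2.

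Cd69 (probe set 1428735_at) encodes the early activation marker that removes S1PR1 from the surface. Its intensities were 799.9, 752.1 and 837.7 in activated cells, against 860.0 and 999.6 in naive cells. All 3 activated arrays were slightly below both naive arrays, as was the case for 5 of the 7 tested members and 20.7% of all genes tested. Activated cells averaged 797 ± 42.9 (SD, n = 3) and naive cells 930 ± 98.7 (SD, n = 2). The log2 fold change of Cd69 was -0.22 ± 0.15 (SE, limma adjusted p = 0.44). Its 95% interval of -0.56 to 0.13 allows a level in activated cells at most 1.09-fold above the naive one. The arrays measured RNA and not CD69 or S1PR1 protein.

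Of the kinases that make S1P, Sphk2 was measured above the filter and Sphk1 was not. Sphk2 (probe set 1417431_a_at) had intensities of 71.5, 63.3 and 62.0 in activated cells, against 70.3 and 97.2 in naive cells, which overlap. Its log2 fold change was -0.28 ± 0.20 (SE, limma adjusted p = 0.45), with a 95% interval of -0.73 to 0.17. Its second probe set, 1426230_at, had 25.8, 32.2 and 28.7 in activated cells, against 56.0 and 28.3 in naive cells, and there naive replicate 1 alone was high. Sphk1 had 9.1, 2.6 and 5.1 in activated cells, against 18.8 and 8.3 in naive cells with its brighter probe set (1451596_a_at), and between 0.5 and 1.0 on all 5 arrays with the other (1420566_at). At such levels no direction can be read for Sphk1.

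Among the enzymes that remove S1P, the phosphatase Sgpp1 lay lower on 2 of its 3 probe sets, short of the threshold, and the lyase Sgpl1 gave no common direction. Sgpp1 (probe set 1420822_s_at) had intensities of 363.5, 428.3 and 532.8 in activated cells, against 617.5 and 793.5 in naive cells. The groups did not overlap, although activated replicate 3 came near naive replicate 1. The log2 fold change was -0.66 ± 0.20 (SE, limma adjusted p = 0.060), with a 95% interval of -1.10 to -0.23. Probe set 1420821_at, whose name has no suffix for sequence shared between transcripts, had 193.7, 198.5 and 240.4 in activated cells, against 306.1 and 390.0 in naive cells. When only probe sets without such a suffix were used, Sgpp1 lay at -0.68 and passed (limma adjusted p = 0.035). It also passed without activated replicate 3, at -0.80 (adjusted p = 0.030). It did not pass without any other array, at -0.84 to -0.49 (limma adjusted p = 0.078 to 0.34), nor with all probe sets averaged, at -0.44 (adjusted p = 0.071). The third, 1450015_x_at, whose suffix marks possible cross-hybridisation, had 135.6, 95.0 and 106.8 in activated cells, against 141.5 and 85.3 in naive cells, which overlap.

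Sgpl1 (probe set 1415892_at) had intensities of 111.2, 96.0 and 100.2 in activated cells, against 96.4 and 154.1 in naive cells. Naive replicate 2 was the highest of the 5 and naive replicate 1 lay among the activated arrays. The log2 fold change was -0.23 ± 0.21 (SE, limma adjusted p = 0.58), and without naive replicate 2 it was 0.07. The dimmer probe set, 1415893_at, had 49.7, 40.8 and 49.9 in activated cells, against 43.3 and 7.8 in naive cells, with naive replicate 2 now the lowest. In the fit over all 29240 probe sets above the filter the log2 value was 0.74 higher in activated cells (limma adjusted p = 0.24), which did not pass. Without naive replicate 1 it was 1.40 higher and passed (adjusted p = 0.017), and without naive replicate 2 it was 0.08 higher (adjusted p = 0.90). The probe sets of Sgpl1 thus pointed in opposite directions, and on each the naive arrays differed from each other by more than the group means did.

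In that fit 11 of the 14 probe sets of the members were tested. The same 2, of Klf2 and S1pr1, were called lower (limma adjusted p = 0.00076 and 0.0028) and 0 higher, while 2.94% of all probe sets tested were called lower, 4.8% higher and 7.74% either way. Klf2, S1pr1, S1pr4, Cd69 and S1pr5 have 1 probe set each, so no second probe set bears on their values.

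**Figure D3:**
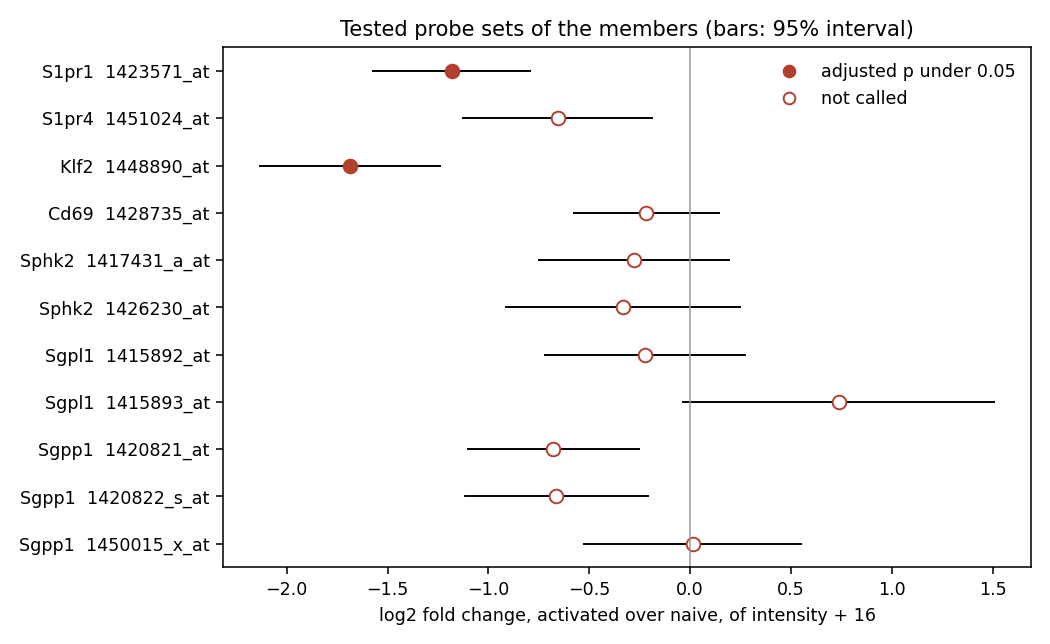
Log2 fold change (x axis, activated over naive, of intensity + 16) of the 11 tested probe sets of the members, with bars for the 95% interval of the moderated fit over all probe sets; filled points have an adjusted p under 0.05. The points of Klf2 and S1pr1 are filled, those of S1pr4 and of 2 Sgpp1 probe sets are open with intervals below 0, and the 2 probe sets of Sgpl1 lie on opposite sides of 0.

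Factors upstream of Klf2 and other genes of T cell trafficking were partly lower in activated cells. Of 13 listed genes 12 were tested; 4 were called lower and 0 higher, or 5 and 0 at an unadjusted p under 0.05 in limma, with a median log2 fold change of -0.42. Over all genes, 4.14% were called lower and 11.5% lay lower at the unadjusted threshold. Foxo1, a forkhead factor that drives Klf2, had intensities of 734.9, 732.5 and 641.5 in activated cells, against 1100.3 and 1235.4 in naive cells, with no overlap. Its log2 fold change was -0.72 ± 0.16 (SE, limma adjusted p = 0.015), and the call was lost with all probe sets averaged (at -0.44) and without activated replicate 2 or naive replicate 2 (at -0.75 and -0.64). The interleukin 7 receptor chain Il7r, a target of Foxo1, had 400.7, 341.4 and 232.7 in activated cells, against 1432.4 and 1179.0 in naive cells, and fell by 1.98 on the log2 scale (limma adjusted p = 0.00028). The gut-homing integrin chain Itgb7 had 571.7, 655.6 and 551.2 in activated cells, against 1159.0 and 1268.8 in naive cells, and fell by 1.02 (limma adjusted p = 0.0022). The selectin ligand Selplg had 1087.9, 1226.7 and 1003.1 in activated cells, against 2062.7 and 1775.9 in naive cells, and fell by 0.79 (limma adjusted p = 0.011). In all 3 the groups were apart, but Selplg lost its call without naive replicate 1, at -0.68. The MEF2 factors and the kinases Mapk7 and Map2k5, which act through them on Klf2, were not called. Genes of these lists that are given with values although not called were picked with their values in view. The node-homing receptor Ccr7, whose ligands hold T cells in the node, had 1531.8, 1423.8 and 1544.0 in activated cells, against 1554.5 and 1629.9 in naive cells. Its log2 fold change was -0.09 ± 0.15 (SE, limma adjusted p = 0.78), beside the falls of S1pr1 and Klf2.

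Among genes that carry or end the S1P receptor signal, 2 were called. Of 16 listed genes of receptor coupling and migration 14 were tested; 2 were called lower and 0 higher, or 4 and 0 at an unadjusted p under 0.05 in limma, with a median of 0.01, against 4.14% and 11.5% of all genes lower at these thresholds. Both were arrestins, which bind activated receptors and lead them into the cell. Arrb2 had intensities of 382.5, 286.5 and 358.0 in activated cells, against 532.7 and 804.4 in naive cells, a log2 change of -0.91 ± 0.21 (SE, limma adjusted p = 0.018). Arrb1 had 31.2, 39.6 and 45.9 in activated cells, against 73.4 and 77.8 in naive cells, a log2 change of -0.75 ± 0.21 (SE, limma adjusted p = 0.049). Neither pair of groups overlapped. Arrb1 lost its call in 9 of 18 alternatives, namely on leaving out any 1 array and with median centring, no filter, no intensity trend or a pseudocount of 1, and ranged from -0.96 to -0.44. Arrb2 lost its call in 4, without activated replicate 2 (-0.80) or naive replicate 2 (-0.62), with no intensity trend, and with suffix-free probe sets (-0.62).

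Other genes of S1P and ceramide metabolism gave 1 call in each direction, where 6.36% of all genes were called higher and 4.14% lower. Of 9 further S1P receptors, carriers, exporters and phosphatases, 4 were tested and 0 were called in limma, with 0 at an unadjusted p under 0.05 and a median of 0.33. S1pr2, a receptor that holds cells back from migrating, had 63.4, 55.5 and 59.5 in activated cells, against 35.4 and 47.3 in naive cells (log2 fold change 0.40, limma adjusted p = 0.27). Its second probe set, 1447880_x_at, had 34.8, 73.4 and 54.4 in activated cells, against 57.8 and 41.6 in naive cells, which overlap. There the log2 fold change was 0.07 (limma adjusted p = 0.92 over all probe sets). Of the 9 genes, 5 were below the filter, among them Spns2, the S1P exporter of endothelium. Of 25 enzymes of ceramide and sphingolipid metabolism 20 were tested, with 1 called higher, 1 lower and a median of -0.06. Sptlc1, a subunit of the enzyme that begins sphingolipid synthesis, had 396.6, 422.5 and 454.7 in activated cells, against 293.6 and 177.9 in naive cells. Its log2 fold change was 0.84 (limma adjusted p = 0.027), and the call was lost in 7 of 18 alternatives. These were all probe sets averaged, at 0.40, no filter, no intensity trend, and 4 fits without 1 array. The last lay at 0.51 without naive replicate 2 and at 0.80 to 0.89 without any 1 of the activated replicates. Sgms1, which turns ceramide into sphingomyelin, had 303.8, 297.9 and 411.8 in activated cells, against 648.4 and 825.7 in naive cells. Its log2 fold change of -1.09 (limma adjusted p = 0.0046) was -0.43 with all probe sets averaged and -0.92 without naive replicate 2, both without a call.

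**Figure D4:**
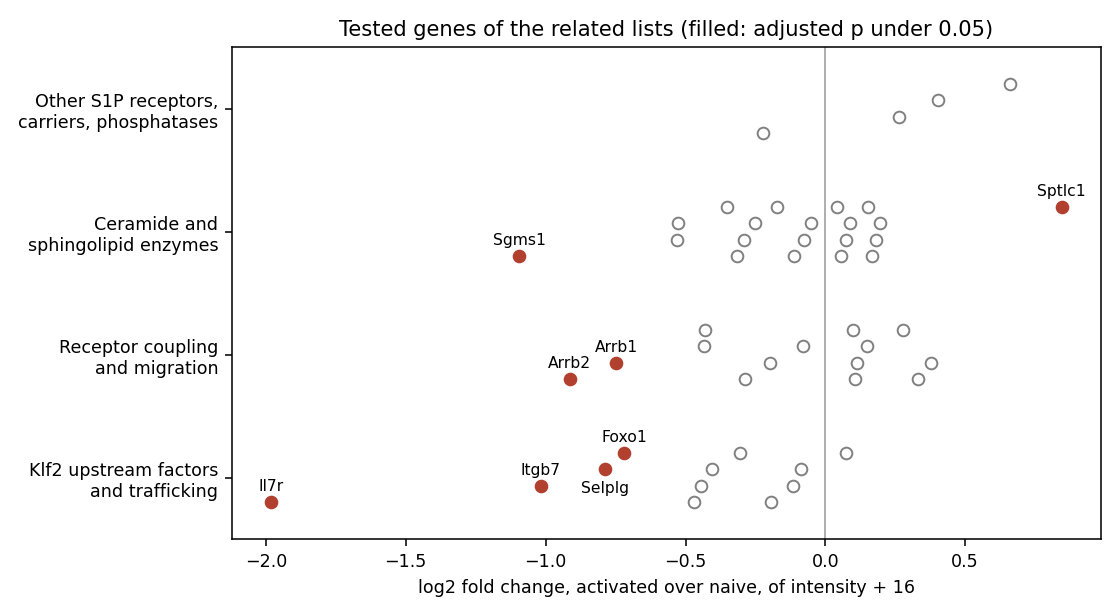
Log2 fold change (x axis, activated over naive, of intensity + 16) of the 50 tested genes on 4 lists of related genes, 1 point per gene, with 1 line per list and small vertical offsets for visibility only. Filled points have an adjusted p under 0.05 and are named: Sptlc1 is the 1 called higher, and 7 are called lower, 4 of them on the list of Klf2 upstream factors and trafficking genes.

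The genes whose profiles over the 5 arrays were most like those of Klf2, S1pr1 and Cd69 were found by the root mean square difference between log2 profiles centred on their means. Nearest to Klf2 were the interferon-inducible GTPases Iigp1 and Irgm2, at 0.064 and 0.103, and Cela3b, a pancreatic elastase gene, at 0.136. Iigp1 had 870.1, 1116.6 and 841.8 in activated cells, against 3131.7 and 2956.8 in naive cells. Activated replicate 2 was the highest of the activated arrays, as for Klf2, which the choice by likeness over these arrays favours. Nearest to S1pr1 were Impact, a regulator of translation, at 0.032, Tecpr1, a gene of autophagy, at 0.055, and Ctrb1, which encodes a pancreatic chymotrypsinogen, at 0.062. Cela3b had 8.9, 17.5 and 11.4 in activated cells, against 81.1 and 85.5 in naive cells, and Ctrb1 had 1.4, 4.2 and 1.5 in activated cells, against 22.6 and 24.0 in naive cells. Both are genes of another tissue that lay higher on the naive arrays, and their part in the member values was not tested. The log2 profiles included the added 16, which understates the changes of such dim genes. The ratio of mean intensities, activated over naive, was 0.10 for Ctrb1, against 0.43 for S1pr1. It was 0.15 for Cela3b, against 0.31 for Klf2. The nearness of Ctrb1 and Cela3b to the members is thus stated for profiles with 16 added, not for intensity ratios. Nearest to Cd69 were Ociad1, Emc6 and Golga4, at 0.012, 0.025 and 0.026, none of which was called.

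The T cell markers Cd3d, Cd3e, Cd3g, Cd4, Cd28 and Cd5 lay far above the filter on all 5 arrays, and Cd5 was called higher in activated cells. The B cell markers Cd79a, Ms4a1 and Cd79b did not exceed 15.2 on any array. Endothelial and lymphatic markers did not exceed 30.8, except Pecam1, which T cells also express and which was called higher in activated cells. Of 3 erythroid and platelet markers 0 were called in limma, nor did any reach an unadjusted p under 0.05. Among them the platelet marker Pf4 had 20.3, 19.4 and 167.1 in activated cells, against 69.2 and 50.8 in naive cells. It was thus highest on activated replicate 3. Further markers differed between arrays as well. Cd8b1 had 326.5, 246.8 and 275.0 in activated cells, against 797.6 and 995.7 in naive cells, and was called lower, with Cd8a at 79.2 or less. The summed intensity of 7 myeloid markers was 2687, 148.2 and 741.4 in activated cells, against 292.2 and 177.2 in naive cells; it was highest on activated replicate 1, and 0 of its 6 tested markers was called (2 at an unadjusted p under 0.05 in limma, both higher). Without activated replicate 1 the log2 fold changes of Klf2 and S1pr1 were -1.62 and -1.15, and both passed (limma adjusted p = 0.0021 and 0.0053). That fit keeps activated replicate 3, whose myeloid sum of 741.4 was above those of both naive arrays. Activated replicate 2 had the lowest myeloid sum of the 5 arrays, and the highest Klf2, S1pr1 and S1pr4 of the activated arrays. The part of myeloid cells in the member values was not tested. The arrays also differed in the bioC hybridisation control, at 679.0, 649.1 and 180.6 in activated cells, against 690.3 and 190.2 in naive cells. On the side with high bioC (2 activated arrays, 1 naive) the log2 fold changes of Klf2, S1pr1 and S1pr4 were -1.67, -1.17 and -0.53, and on the side with low bioC (1 activated, 1 naive) -1.81, -1.25 and -0.88. With this split as a block, S1pr4 at -0.68 (limma adjusted p = 0.033) and Sgpp1 at -0.60 (adjusted p = 0.013) also passed, so that 4 members were called lower. The block also raised the number called lower among all genes tested from 533 to 859. It was added after seeing the data.

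**Figure D5:**
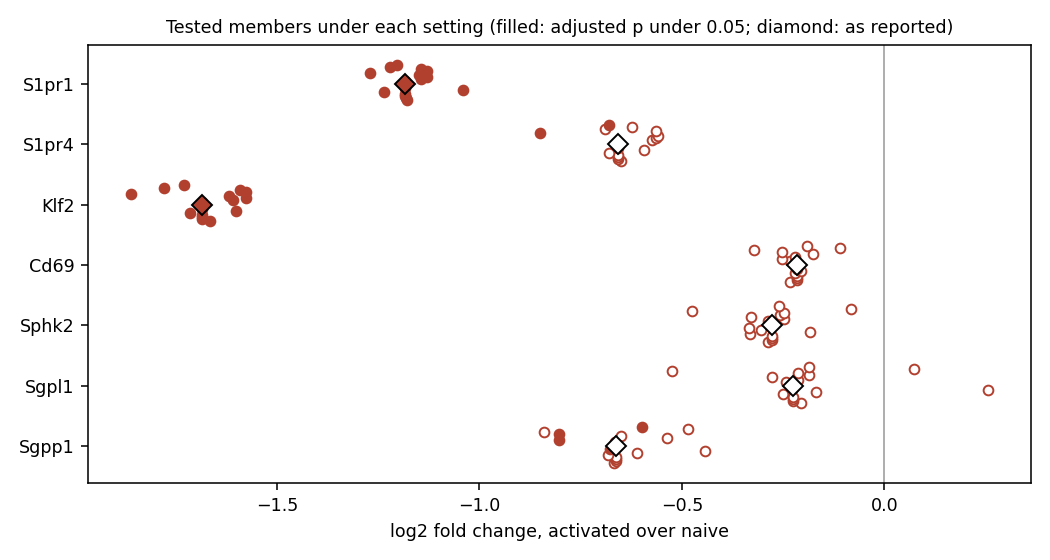
Log2 fold change (x axis, activated over naive) of the 7 tested members as reported (black-edged diamonds) and under each of 18 other settings (circles, with small vertical offsets for visibility only). Filled symbols have an adjusted p under 0.05. All symbols of Klf2 and S1pr1 are filled and those of Cd69, Sphk2 and Sgpl1 are open, while S1pr4 and Sgpp1 have both kinds.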

How the data were processed

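RNA of sorted cells was labelled with biotin from 6 µg of total RNA and hybridised to 1-colour Affymetrix arrays, per the labels' protocols. The deposited values are 1 linear intensity per probe set and array, already summarised by the authors. They have a 2% trimmed mean near 100 on each array. For the summary method and software, the sources used here name none. The number of arrays limits the precision.

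Values were taken as log2(intensity + 16) without further scaling. Probe sets with 1 symbol in GEO's platform annotation, 34945 in all, were named, and the rest stayed unnamed. For 34741 of them the gene symbol was taken from RefSeq by gene identifier, and otherwise from the platform annotation. A gene was represented by its brightest probe set. Probe sets had to exceed the 40th percentile of their array on at least 2 arrays. limma (version 3.58.1, R 4.3.3) fitted activated minus naive with lmFit and eBayes with an intensity trend. Adjusted p-values are Benjamini-Hochberg over all 12873 genes or 29240 probe sets, two-sided, with a threshold of 0.05. On simulated data with 200 of 12873 genes changed, 64.2% of changes of 1 log2 unit and 98.4% of 2 were recovered, and 7.42% of calls were false. The simulation drew independent noise for each gene and array. It also changed a smaller share of genes than the 10.5% called here, so these rates need not hold for these data.

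The genes described, the related lists and the marker lists were chosen with earlier results of these data known. The text names all members, each called gene on the related lists, and for Klf2, S1pr1 and Cd69 the 3 nearest profiles. Alternatives covered normalization, filter, pseudocount, probe set choice, variance model, weights, a replicate block and leaving out each array. A block for the bioC control was added after seeing the data.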

Additional observations from a re-analysis of the deposited data

How the results depend on the processing

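With 2 naive arrays, single arrays moved the counts: leaving out 1 array gave 462 to 704 genes higher and 181 to 494 lower, 723 to 1331 probe sets higher and 324 to 645 lower, and 2 to 3 members lower. Where 1 naive array was left, it was assumed to vary like the activated ones. Over the 18 alternatives Klf2 ranged from -1.86 to -1.58 and S1pr1 from -1.27 to -1.04, with a call in each. Without a filter 349 genes were called lower, and 870 probe sets higher and 510 lower. With the bioC block 859 genes, 4 members and 1486 probe sets were called lower. The labels do not say that replicate numbers pair the arrays. With 2 naive arrays, whose deviations mirror each other, the correlation across genes with naive replicate 1 was 0.17, 0.13 and -0.31 for activated replicates 1, 2 and 3, the same sides as the bioC split, and the opposite sign with naive replicate 2. The deviations of the activated arrays cancel out within each gene, so these correlations cannot all share a sign. The match with the bioC split is therefore no test of that split. With the replicate block 974 genes were called higher and 796 lower, with 3 members lower, the third being Sgpp1 at -0.80 (limma adjusted p = 0.0045). Directions turned for Sgpl1, at 0.26 with all probe sets averaged and from -0.52 to 0.074 over the fits without 1 array, the range also of its probe set 1415892_at. Over the same fits Sphk2 probe set 1426230_at ranged from -0.68 to 0.017 and Sgpp1 probe set 1450015_x_at from -0.31 to 0.33. The last also turned with array weights (-0.032) and the bioC block (-0.041). None of these was called, and the cause was not tested. Choices of probe set within a gene do not apply to the fit over probe sets. Quantile normalization and median centring left the median of all genes at -0.03.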

Other observations

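Among the probe sets of related genes, some that were not the brightest of their gene were called while the brightest was not. They were picked with their values in view. Dock2 encodes an activator of Rac that lymphocytes need for migration. Its probe set 1444741_at had 188.7, 246.4 and 177.5 in activated cells, against 598.6 and 554.3 in naive cells (log2 fold change -1.44, limma adjusted p = 0.0014 over all probe sets). Its probe set 1438334_at had 128.4, 192.8 and 172.7 in activated cells, against 337.2 and 303.6 in naive cells (-0.91, limma adjusted p = 0.024). The brightest Dock2 probe set, 1422808_s_at, had 813.8, 767.7 and 784.3 in activated cells, against 1053.6 and 1086.0 in naive cells (-0.43, limma adjusted p = 0.13). All 3 lay lower in activated cells, by different amounts.

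Foxp1, a forkhead factor of resting T cells, had 227.5, 306.4 and 292.3 in activated cells, against 515.5 and 542.6 in naive cells with probe set 1438802_at (log2 fold change -0.91, limma adjusted p = 0.014), while its brightest lay at -0.41. The other 6 tested probe sets of Foxp1 lay between -0.32 and 0.02 and were not called. Coro1a, an actin regulator of T cell egress, lay at -0.97 (limma adjusted p = 0.039) with probe set 1435288_at and at 0.11 with its brightest. Its remaining probe set at -0.19 was not called. The called probe set was far dimmer, with means of 103 in activated and 217 in naive cells. The brightest had means of 5703 and 5250, and the remaining probe set 5071 and 5790. Of the 124 tested probe sets of the related genes, 13 were called lower, or 10.5%, and 1 higher, against 2.94% and 4.8% of all probe sets tested. These lists were chosen with earlier results of these data known, and no test was run over them. Sgms1, Foxo1, Il7r and Dock2 each gave more than 1 of the called probe sets, so these are not separate genes.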
